A study of Homo sapiens with 12 samples.

Results

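This account sets 2 H-Ras-transformed lines side by side, both made from MCF10A, an established line of human breast epithelial cells that forms no tumours. The p53-deleted H-Ras line carries a targeted deletion at exon 2 of the p53 gene and stably expresses H-RasV12 from a retrovirus. The p53 wild-type H-Ras line has intact p53 and expresses the same mutant. Their controls, a p53-deleted and a p53 wild-type line with the pBabepuro vector, each share a deposited table with the H-Ras line of the same p53 state. Each of the 4 groups holds 3 of the 12 RNA sequencing libraries. All cells grew in medium with horse serum and had no treatment, and the labels do not say whether a line is 1 clone or whether replicates were separate cultures, so p-values rest on the variation among these libraries alone, and that variation may be technical. Each p53 state is represented by 1 pair of lines, so p53 state and pair of lines cannot be told apart.

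Genes were kept where the mean of either H-Ras line reached 10 normalized counts after the 2 deposited tables, which were scaled separately, had been put on 1 scale. This kept 12958 of the 62082 gene IDs in both tables, of which 11868 reached 10 in both lines, 664 in the p53-deleted line only and 426 in the p53 wild-type line only. MYRIP, at 10.01 and 0 in the p53-deleted and p53 wild-type lines, lay just inside this limit, and HCP5, at 7.13 and 9.99, just outside. The values of single libraries were solved from printed group means, and 17 kept genes without a unique solution were not tested. The libraries are called A, B and C within a group, which is no match to replicate numbers.

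p53 is a transcription factor that is stabilised by DNA damage and by oncogene signalling, and it switches on genes for cell cycle arrest, DNA repair and cell death. H-RasV12 is locked in its active state and drives the MAPK cascade. In mammary epithelial cells, strong Ras signalling is known for a loss of epithelial junctions and for secretion of inflammatory factors. It is also known for an arrest that cells must evade to keep dividing.

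HRAS, which encodes the small GTPase, was measured at 15490.0, 17176 and 17479.9 normalized counts in libraries A to C of the p53-deleted line and 19615, 18690.0 and 15741 in those of the p53 wild-type line. The lines overlapped, with a log2 difference (p53-deleted minus p53 wild-type, on log2 of the normalized count + 1) of -0.104 ± 0.11 (SE, adjusted p = 0.48). The vector lines held 791 ± 40.3 and 897 ± 130.2 (SD, n = 3; p53-deleted first), and gene counts cannot separate the introduced from the endogenous transcript. Values joined by "against", and pairs of vector values, are given with the p53-deleted line first throughout.

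The labelled cell type was checked against epithelial and mesenchymal genes. KRT5, a keratin of basal epithelium, was at 2358, 3372 and 3407 in the p53-deleted and 5633, 4523 and 6569 in the p53 wild-type H-Ras libraries. TP63, a regulator of basal epithelium that was too low in the H-Ras lines to be tested, was at 1.89 ± 0.994 in the p53-deleted and 2.09 ± 1.81 in the p53 wild-type one, against 972 ± 31.4 and 1094 ± 172 in their vector lines. VIM, which encodes the mesenchymal filament protein vimentin, reached 5090.1, 5309.6 and 5201 in the p53-deleted and 7024, 7208 and 7231 in the p53 wild-type libraries, lower in the former by a log2 difference of -0.46 ± 0.07 (SE, adjusted p = 0.0016). VIM was at 64.4 ± 23.1 and 1325 ± 80.1 in the vector lines (interaction 3.93 ± 0.24 SE, adjusted p = 1.4e-06). ZEB1, a repressor of epithelial genes, was at 425 ± 39.4 and 633 ± 48.3 (-0.58, adjusted p = 0.004), but in a fit of all 12 libraries its adjusted p was 0.15.

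Epithelial transcripts differed in both directions. CDH1, the gene of E-cadherin, was at 36.8, 40.1 and 33.9 normalized counts in libraries A to C of the p53-deleted line and 12.2, 4.06 and 6.45 in those of the p53 wild-type line, a log2 difference of 2.26 ± 0.36 (SE, adjusted p = 0.0023) with 2921 ± 131 and 2129 ± 364 in the vector lines. EPCAM, an epithelial surface protein, was at 95.4, 111 and 97.9 in the p53-deleted and 24.4, 19.3 and 12.9 in the p53 wild-type libraries (2.41 ± 0.25 SE, adjusted p = 0.00031). ESRP1, an epithelial splicing factor, was at 17.7 ± 1.59 against 3.74 ± 2.52 (2.15 ± 0.46 SE, adjusted p = 0.0089). The 3 sets of values do not overlap between the lines, and CDH1 and ESRP1 passed the filter only through the p53-deleted line. The junction list also held genes with the opposite difference, among them the claudin gene CLDN1 (-4.32) and the desmoglein gene DSG3 (-2.95). Of its 29 genes 19 passed the filter, 5 of them through 1 line only, and 7 were higher and 4 lower in the p53-deleted H-Ras line (median log2 difference 0.67). Counts were 4 higher and 2 lower of 14 that reached 10 in both lines, and the median over the list was 0.28 without p53 wild-type library C. CDH1, ESRP1, VIM, ZEB1, TP63 and KRT5 were named as markers, outside the rule for named genes and after their values were seen.

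Markers of other cell types were measured as well, and their part in the results was not tested beyond these values. The leukocyte gene PTPRC, the endothelial gene PECAM1, the fibroblast collagen genes COL1A2 and COL3A1 and the adipocyte gene ADIPOQ were at 0 reads in all 6 H-Ras libraries. The summed level of 10 fibroblast markers was 11400.0 to 16994 in the p53-deleted and 3334 to 5294 in the p53 wild-type H-Ras libraries, and 1 of 5 tested was higher (COL6A3) and 3 lower. The 11 leukocyte markers summed to 825 to 975 and 689.9 to 1634, with 2 of 5 tested lower (4 of 5 without p53 wild-type library C), and the 10 endothelial markers to 527 to 588 and 703 to 901, with 1 higher and 1 lower of 2 (1 and 2 of 3 without it). The 10 melanocyte and glial markers summed to at most 75.3 and the 6 adipocyte markers to at most 38.7 in an H-Ras library.

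The H-Ras libraries held an estimated 8461852 to 10084898 reads each. Library C of the p53 wild-type H-Ras line stood apart from its group: 6.04% of genes with a mean of at least 50 differed more than 2-fold from the mean of the other libraries of the group, against 0.0394% to 0.908% for the other 5 H-Ras libraries. Its DNA replication genes deviated by a median log2 of 1.93 from libraries A and B. Where leaving it out changed a call or moved a count or median below by more than 1.5 times, the value without it is given.

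**Figure D1:**
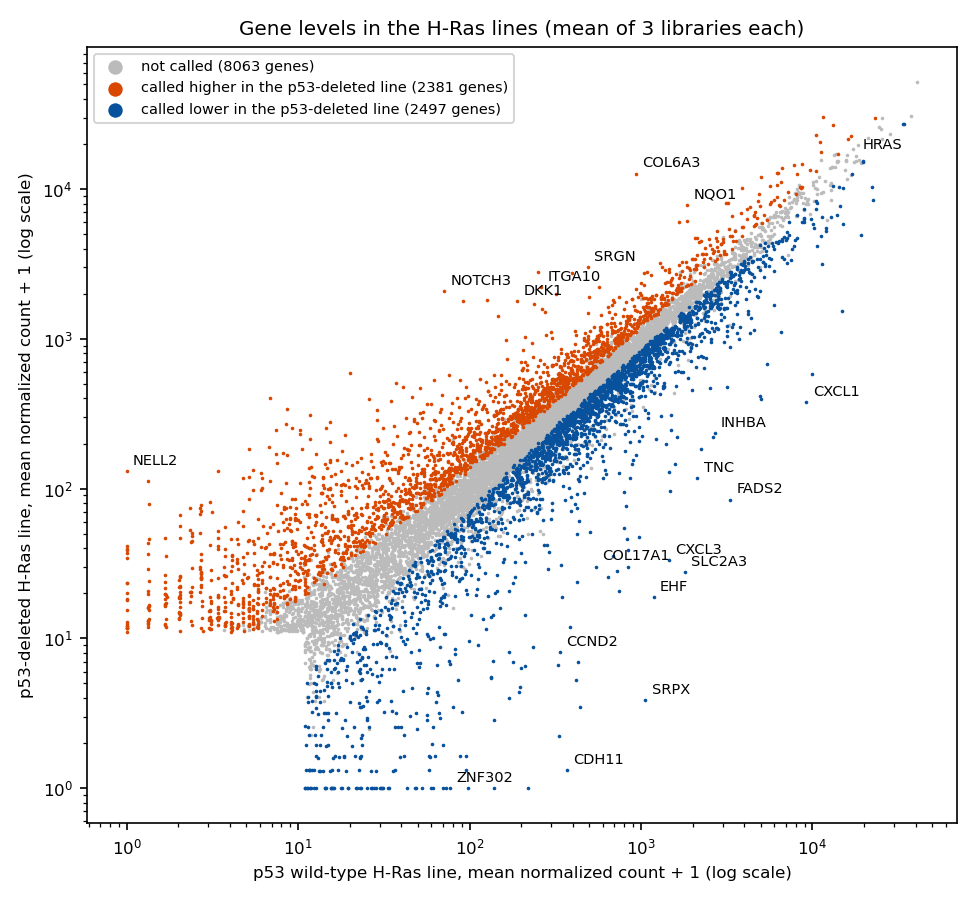
Mean normalized count + 1 of each tested gene in the p53 wild-type (x axis) and the p53-deleted (y axis) H-Ras line, both axes logarithmic, with 3 libraries per line. Orange points are the 2381 genes called higher and blue points the 2497 called lower in the p53-deleted line. HRAS lies close to the diagonal.

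Of 12941 genes tested with limma, 4878 differed between the H-Ras lines at a Benjamini-Hochberg adjusted p under 0.05, two-sided, which is 37.7% of those tested. Of these 2381 (18.4%) were higher and 2497 (19.3%) lower in the p53-deleted line, and the median log2 difference over all tested genes was -0.03. Without the joint rescaling the split was 3606 higher and 1561 lower, so directions are relative to the joint scale. The rescaling moves a difference by at most 0.18, and by less where a gene is low in a line. The 3 values of 1 line all lay above the 3 of the other for 7078 genes (54.7%). With p53 wild-type library C left out, 6425 genes were called. Counts of the gene lists below are to be read against these shares and this median. The absolute log2 difference was at least 1 for 1982 of the called genes and at least 3 for 419.

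Many of these calls were made between the vector lines too. Between the vector lines 3899 of 12760 genes were called (30.6%; 2518 without p53-deleted vector library A), and 1970 genes were called in the same direction in both comparisons, which is 40.4% of the calls between the H-Ras lines and 50.5% of those between the vector lines. Another 200 were called in opposite directions. The difference between the H-Ras lines itself differed from that between the vector lines for 2324 of 13362 genes (17.4%, interaction contrast over 12 libraries; 1523 genes without p53-deleted H-Ras library C), and 1461 of these were among the 4878.

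Among the 12 genes with the largest difference towards the p53 wild-type line, SRPX, a secreted sushi-repeat protein gene, was first, at 0.875, 4.77 and 2.91 normalized counts in libraries A to C of the p53-deleted line and 1127, 1234 and 816 in those of the p53 wild-type line (-8.23 ± 0.396 SE, adjusted p = 1.5e-05). CDH11, a cadherin typical of mesenchymal cells, had 392, 396 and 326 in the p53 wild-type libraries and 1 read over the 3 p53-deleted ones, a ratio of 1199 (95% counting interval 215 to 47399.8). ADAMTS12, a protease gene of the ADAMTS family, had 237, 273 and 146 in the p53 wild-type libraries and 0 reads in the p53-deleted line. It was thus at least 235-fold lower there, taking 3 reads in the group as the floor. In the vector lines these 3 genes were at 88.4 ± 15.3, 20.2 ± 1.65 and 11.4 ± 3.66 in the p53 wild-type line and under 2 in the p53-deleted one. Their log2 differences between the vector lines were -5.14, -4.07 and -3.28, in the same direction as between the H-Ras lines. The intervals and floors cover counting error only.

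EHF, an ETS-family transcription factor of epithelial cells, was at 14, 25.8 and 13.6 normalized counts in libraries A to C of the p53-deleted line and 1192, 1214 and 1144 in those of the p53 wild-type line (-6.04 ± 0.23 SE, adjusted p = 8.4e-06), while both vector lines expressed it, at 592 ± 16.1 and 1622 ± 309. The interaction was -4.602 ± 0.28 (SE, adjusted p = 1.4e-06). FADS2, a fatty acid desaturase, was lower in the p53-deleted vector line already (156 ± 3.64 against 3595 ± 889) and was at 83.3 ± 16.9 against 3309.9 ± 952 with H-Ras (-5.27 ± 0.24 SE, adjusted p = 1.3e-05). IGFBP4, a binding protein of insulin-like growth factors, was at 342, 344 and 305 in the p53 wild-type and 1.75, 1.91 and 0 in the p53-deleted H-Ras libraries (-7.37, adjusted p = 2.4e-05). The remaining genes of these 12 were C1QTNF1 (-6.27), ADAM8 (-5.97), KIAA1644 (-5.74), C9orf64, which had 0 reads in the p53-deleted line and was at least 149-fold lower, and FPR1, SLC2A3 and CSF2, which are described with their groups.

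In the other direction, the 12 largest differences were led by NELL2, a secreted protein of the nervous system, with 141, 132 and 117 normalized counts in the p53-deleted H-Ras libraries and 0 reads in the p53 wild-type ones, at least 126-fold higher. NELL2 was also on in the p53-deleted vector line (75.7 ± 8.81) and at 0 reads in the other. ONECUT3, a homeobox transcription factor, had 116, 109.7 and 106 against 1 read (ratio 321, 95% counting interval 57.3 to 12725). SULT1E1, the estrogen sulfotransferase, was at 161, 287 and 292 normalized counts in libraries A to C of the p53-deleted line and 11.2, 7.11 and 1.07 in those of the p53 wild-type line (5.34 ± 0.62 SE, adjusted p = 0.00052), and CADM3, a neural cell adhesion gene, at 258, 251 and 299 against 12.2, 9.14 and 1.07. Neither separated the vector lines, where SULT1E1 was at 29.9 ± 7.25 and 26.3 ± 1.48 and CADM3 had 0 reads in all libraries. TRIML2 (5.82), C1orf115 (5.37), FAM155B (5.34), GPAT2 (5.24), MAPK8IP2 (4.96), SLC12A7 (4.89), PODXL2 (4.83) and NOTCH3 completed the 12. Among genes with at least 1000 in the higher line, NR2F1, an orphan nuclear receptor, was at 2626, 2902 and 2896 against 249, 255 and 247 (3.48 ± 0.08 SE, adjusted p = 1.6e-06), and FAM65B at 1765, 1846 and 1838 against 149, 152 and 74.2 (3.92 ± 0.26 SE, adjusted p = 4.3e-05), while the p53-deleted vector line had the lower FAM65B level (6.95 ± 2.53 against 22.3 ± 7.54).

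**Figure D2:**
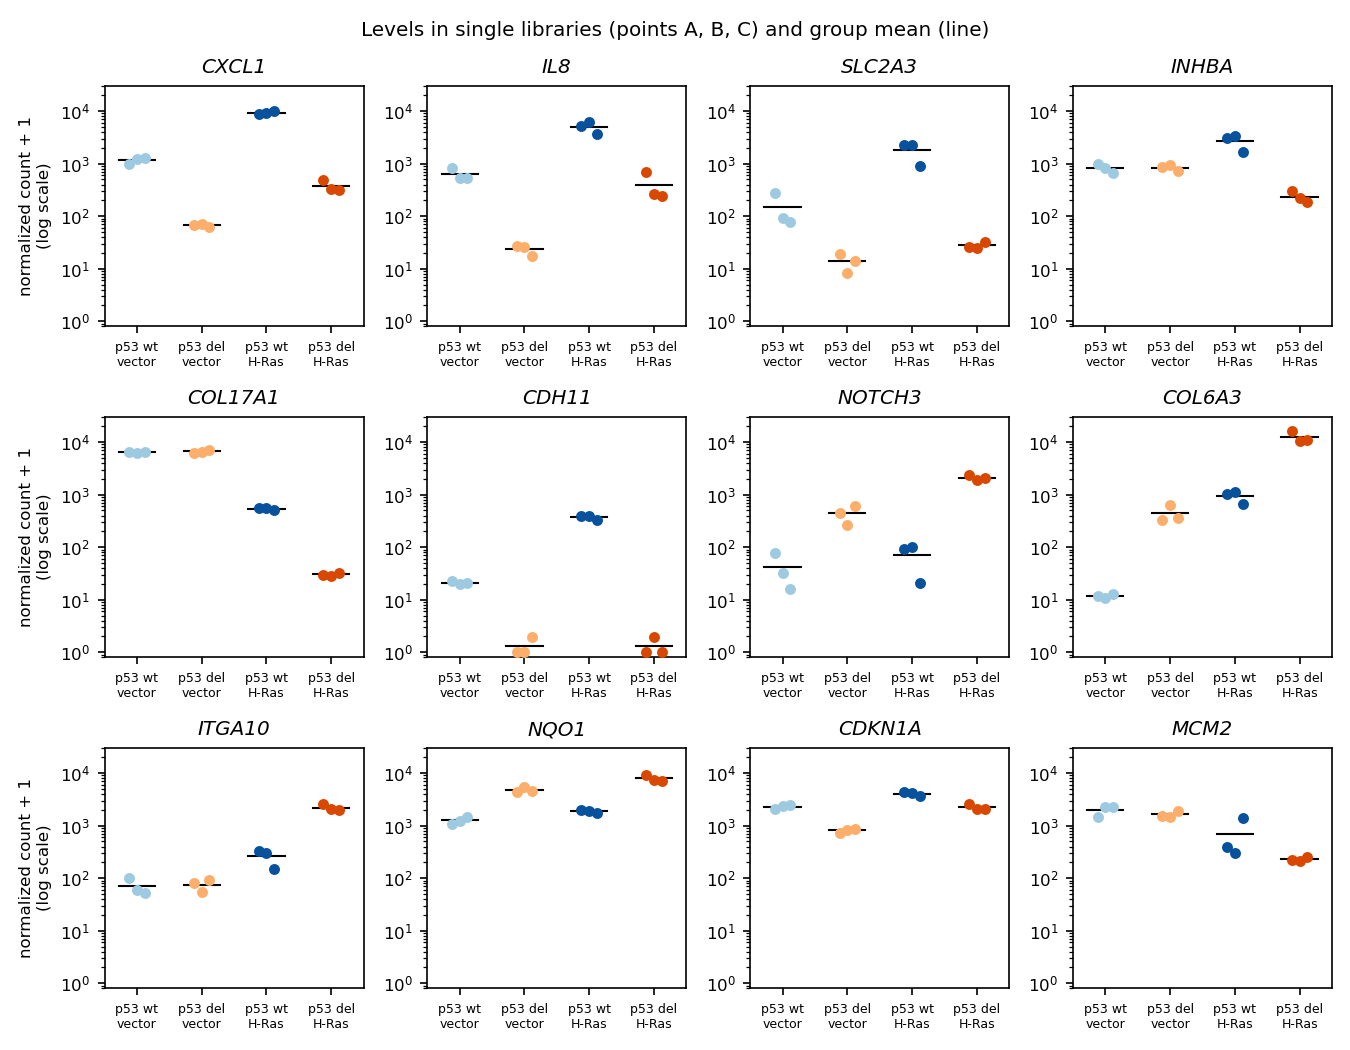
Normalized count + 1 (log axis) of 12 genes in each library of the 4 groups; points are libraries A, B and C from left to right, the line is the group mean. INHBA and COL17A1 are close in the vector lines and apart in the H-Ras lines, while CXCL1 and NQO1 are apart in both pairs. MCM2 shows the p53 wild-type H-Ras library C above A and B.

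Secreted inflammatory factors were for the most part lower in the p53-deleted line. Chemokines of the CXCL family draw neutrophils to sites of infection or damage, and their genes are textbook targets of NF-kappa-B, which binds to their promoters. CXCL1 was at 487, 335 and 310.1 normalized counts in libraries A to C of the p53-deleted line and 8760.3, 9085 and 9853 in those of the p53 wild-type line (-4.64 ± 0.16 SE, adjusted p = 8.4e-06). CXCL3 was at 36.8, 30.5 and 29.1 against 1323, 1547 and 1479.8 (-5.46 ± 0.13 SE, adjusted p = 1.6e-06), and CXCL2 at 20.1, 27.7 and 20.4 against 423, 441 and 402 (-4.17 ± 0.16 SE, adjusted p = 8.4e-06). IL8 (now CXCL8), chosen after its values were seen, was at 689, 264 and 239 against 5289.9, 6111 and 3618 (-3.79 ± 0.39 SE, adjusted p = 0.00032). No values overlapped, and p53-deleted library A held the highest level of its line for CXCL1, CXCL3 and IL8. CXCL5, named after its values were seen, had 16.2, 23.4 and 11.8 in the p53 wild-type libraries and 0 reads in the p53-deleted line. CXCL1, CXCL2 and CXCL3 are near-identical paralogs, so reads may be split between them.

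The promoters of these chemokines carry a shared stretch just upstream of the transcription start. The bases shown are RefSeq's (GRCh38.p14), read 5′ to 3′ on the strand of the gene, and capitals mark a match to GGAANTTCC, an NF-kappa-B-type motif that is its own reverse complement.
CXCL1 (chr4:73869275-73869363, plus strand): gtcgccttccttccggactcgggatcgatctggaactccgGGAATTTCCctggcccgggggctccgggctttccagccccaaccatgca
CXCL2 (chr4:74099224-74099312, minus strand): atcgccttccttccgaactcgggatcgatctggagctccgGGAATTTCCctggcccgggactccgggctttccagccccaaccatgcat
CXCL3 (chr4:74038719-74038807, minus strand): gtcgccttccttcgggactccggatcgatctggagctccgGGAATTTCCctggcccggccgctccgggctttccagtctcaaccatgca
CXCL8 (chr4:73740438-73740526, plus strand): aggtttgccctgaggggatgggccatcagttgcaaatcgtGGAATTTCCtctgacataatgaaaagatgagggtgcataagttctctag
The match begins 77 to 91 bases upstream of the start. Among 35116 promoters of the same table, each 250 bases upstream to 50 downstream of a start, 339 hold the motif (0.965%). Of 16 promoters found for the list of secreted factors, 6 hold it upstream of the start, all of CXCL genes. The share over all promoters also counts matches downstream of the start, so these counts are not like for like. The 6 include CXCL6, which was at 0 reads in both H-Ras lines, while the promoter of CSF2 holds no match. Whether the motif goes with the lower levels was not tested. A match is a description of these letters and does not show binding.

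CSF2, the gene of the growth factor GM-CSF, was at 6.13, 1.91 and 0.969 normalized counts in libraries A to C of the p53-deleted line and 182, 201 and 125 in those of the p53 wild-type line (-5.598 ± 0.47 SE, adjusted p = 0.00012). Its relative CSF3 (G-CSF), chosen after its values were seen, was at 1192, 835 and 835 against 3091, 3126 and 2904 (-1.69 ± 0.14 SE, adjusted p = 0.00013), whereas it was the p53-deleted vector line that was higher (1.02 ± 0.21 SE, adjusted p = 0.0061). Of 21 listed factors 16 passed the filter, 3 through 1 line only, and 2 were higher and 11 lower in the p53-deleted H-Ras line (median log2 difference -2.54). IL24, a cytokine of the interleukin-10 family (3.35), and LIF, a ligand of the interleukin-6 family (1.18), were the 2 higher members, named because the count is small. Between the vector lines 3 factors were higher and 9 lower of 15 tested.

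Of 19 tested receptors of inflammatory signals, 11 were lower in the p53-deleted line. FPR1, which senses formylated bacterial peptides, was at 2.63, 1.91 and 2.91 normalized counts in libraries A to C of the p53-deleted line and 588, 557 and 175 in those of the p53 wild-type line (-6.81 ± 0.45 SE, adjusted p = 4.7e-05). C3AR1, the receptor of complement fragment C3a, was at 19.3, 26.7 and 28.1 against 755, 780.1 and 387 (-4.59 ± 0.29 SE, adjusted p = 3.7e-05), and C5AR2, a receptor of C5a, at 55.1, 44.8 and 39.7 against 1373, 1276 and 257 (-4.03 ± 0.59 SE, adjusted p = 0.0015). In all 3 genes the p53 wild-type library C was the lowest of its group and still above every p53-deleted library. IL7R, the interleukin-7 receptor, had a log2 difference of -3.45. Of 23 listed receptors 19 passed the filter, and 2 were higher, with a median of -0.93. Between the vector lines the receptor list gave 0 higher and 7 lower of 13 tested, with a median of -0.65.

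Genes of the antigen presentation list differed in the same direction, with 1 of 20 tested higher and 10 lower, a median of -0.64. Of the 20, 5 passed the filter through 1 line only, which leaves 1 higher and 5 lower of 15 that reached 10 in both lines. CD74, the invariant chain of HLA class II, was at 80.2, 73.1 and 32.2 in the p53 wild-type libraries and had 2 reads in the p53-deleted line (ratio 101, 95% counting interval 27.4 to 837). CIITA, the activator of class II genes, chosen after its values were seen, was at 1.55 ± 1.46 against 39 ± 1.24 (-4.18 ± 0.496 SE, adjusted p = 0.00058). The peptide-trimming enzyme gene ERAP1 (-0.96) and the proteasome subunit gene PSMB10 (-1.102) were also lower. HLA genes are near-identical to each other and their single values are uncertain. Among 18 tested interferon response genes 0 were higher and 7 lower (without p53 wild-type library C, 1 and 9; median -0.21, close to the scaling shift of 0.18), including IFI44L (-1.81), IRF7 (-1.48) and OAS3 (-1.17). OAS3 lost its call without p53-deleted library A, at an adjusted p of 0.053. Between the vector lines the interferon list gave 0 higher and 7 lower of 17 tested, with a median of -0.57. The antigen presentation list gave 2 higher and 8 lower of 16 there, with a median of -0.39.

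Collagen VI, a beaded filament built from 3 chains, was higher in the p53-deleted line for each of its chains in the list. COL6A3 was at 16483, 10634 and 10967 normalized counts in libraries A to C of the p53-deleted line and 1012, 1126 and 654 in those of the p53 wild-type line (3.78 ± 0.24 SE, adjusted p = 3.6e-05). COL6A1 was at 2046, 1663 and 1649.5 against 109, 105 and 57 (4.34 ± 0.24 SE, adjusted p = 2.4e-05), and COL6A2 at 524, 418 and 462 against 58.9, 58.9 and 33.3 (3.23 ± 0.23 SE, adjusted p = 6.4e-05). The vector lines were at 659 ± 47.2 and 2.06 ± 0.855 for COL6A1, with an interaction of -3.45 ± 0.36 (SE, adjusted p = 6.7e-05). Of 17 tested collagens 4 were higher and 3 lower. SRGN, the proteoglycan serglycin (2.64), and CYR61, a matricellular protein and target of YAP (2.596), were higher, while the small proteoglycan DCN (decorin, -2.798) and the fibulin FBLN1 (-2.51) were lower. This list gave 10 higher and 8 lower of 20.

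Hemidesmosomes anchor basal cells to the basement membrane. COL17A1, the transmembrane collagen of the hemidesmosome, was at 28.9, 27.7 and 31 normalized counts in libraries A to C of the p53-deleted line and 547, 567 and 513 in those of the p53 wild-type line (-4.17 ± 0.12 SE, adjusted p = 5.5e-06), and in the vector lines at 6647 ± 431 and 6394 ± 110.0. The H-Ras lines did not overlap, the difference between the vector lines did not pass the test, and the interaction was -4.22 ± 0.12 (SE, adjusted p = 6.2e-10). The laminin chain genes LAMA3 and LAMB3 were named after their values were seen and did not pass the test with all libraries: LAMA3 was at 427 ± 34.8 against 453 ± 66.3 (-0.08 ± 0.13 SE, adjusted p = 0.66), and LAMB3 at 8283 ± 947 against 10199 ± 1770.2 (-0.29 ± 0.15 SE, adjusted p = 0.15). Without p53 wild-type library C, LAMB3 was called lower (-0.44, adjusted p = 0.0031). ITGB4, the hemidesmosomal integrin subunit, was higher in the p53-deleted line (7997, 7787 and 8351 against 4009, 3699 and 1918, 1.397 ± 0.25 SE, adjusted p = 0.0041), and its partner ITGA6 lower (-0.997). Of 16 tested basal genes 3 were higher and 10 lower, with a median of -0.65. Of the 16, 2 passed the filter through 1 line only, which leaves 3 higher and 8 lower of 14 that reached 10 in both lines (median -0.46).

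Among other integrins, ITGA10, a collagen-binding subunit, was at 2588, 2039 and 1979 normalized counts in libraries A to C of the p53-deleted line and 325, 305 and 150.5 in those of the p53 wild-type line (3.15 ± 0.28 SE, adjusted p = 0.00016), while the vector lines were at 74.5 ± 18.6 and 70.7 ± 26.9. ITGA2, another collagen-binding subunit, differed in the opposite direction (-1.63), and the list gave 5 higher and 5 lower of 18. Several matrix proteases were lower in the p53-deleted line. MMP2, a gelatinase, was at 34.1, 23.8 and 29.1 against 972, 1026 and 523 (-4.76 ± 0.27 SE, adjusted p = 2.5e-05) and the collagenase MMP1 at 6.13, 1.91 and 1.94 against 75.1, 68.1 and 23.6 (-3.68 ± 0.54 SE, adjusted p = 0.0015). SERPINB2, an inhibitor of plasminogen activators, was at 1.55 ± 0.523 against 59.9 ± 8.39 (-4.59), the reverse of the vector lines (2.01). Of 23 listed proteases and inhibitors 19 passed the filter, 6 of them through 1 line only, and 3 were higher and 9 lower, with 3 higher and 4 lower of 13 that reached 10 in both lines. The median over the list was -0.81, and -1.23 without p53 wild-type library C. Over the 13 that reached 10 in both lines it was -0.18, about the size of the scaling shift of 0.18. The summed level of the list was higher in the p53-deleted H-Ras libraries, at 53946 to 87511, than in the p53 wild-type ones, at 26391 to 42654. The mesenchymal list gave 1 higher of 18, the calcium-binding S100A4 (1.89), and 9 lower, with the matrix glycoprotein TNC at -4.203 and the repressor SNAI2 at -1.94. The untested fibronectin gene FN1 had rescaled means of the authors' deposited columns of 98849 and 68102.

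Notch signalling passes between neighbouring cells from Delta and Jagged ligands to Notch receptors. The receptor gene NOTCH3 was at 2334, 1912 and 2033 normalized counts in libraries A to C of the p53-deleted line and 90.3, 101 and 19.3 in those of the p53 wild-type line (5.19 ± 0.55 SE, adjusted p = 0.00035), and the vector lines were at 436 ± 177 and 41 ± 31.4. The ligand JAG2 was at 491, 462 and 481 against 95.4, 90.4 and 95.6 (2.34 ± 0.10 SE, adjusted p = 9.2e-06). NRARP, a feedback inhibitor that Notch induces, was at 47.3, 54.4 and 69.8 against 7.1, 7.11 and 4.3 (3.03 ± 0.28 SE, adjusted p = 0.00019), with the vector lines at 30.5 ± 9.89 and 34.8 ± 8.4. None of these values overlapped between the H-Ras lines. Of 13 tested pathway genes, 3 of them past the filter through 1 line only, 7 were higher and 4 lower, and NOTCH2 (-1.15) and NOTCH4 (-2.36), named after their values were seen, were among the latter.

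DKK1, a secreted inhibitor of WNT receptors, was at 1848, 1737 and 1754 normalized counts in libraries A to C of the p53-deleted line and 135, 131 and 302 in those of the p53 wild-type line (3.34 ± 0.29 SE, adjusted p = 0.00016), and SFRP1, which binds WNT ligands, at 825, 696 and 671 against 127, 112 and 257 (2.23 ± 0.29 SE, adjusted p = 0.00085). SFRP1 was lower in the p53-deleted vector line (-0.67). Of 26 listed WNT genes 13 passed the filter, and 7 were higher and 2 lower. In the TGF-beta list 5 were higher and 2 lower of 19, with 2 higher and 2 lower of 14 that reached 10 in both lines. INHBA, the subunit of activin A, was at 299, 223 and 181 against 3031, 3329.8 and 1697 (-3.48 ± 0.28 SE, adjusted p = 9.8e-05) where the vector lines held 837 ± 105 and 813 ± 152.

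Ligands and receptors of growth factors were described separately. EPGN, a ligand of the EGF receptor, was at 28.9, 26.7 and 28.1 against 258, 260.0 and 337 (-3.297 ± 0.16 SE, adjusted p = 1.5e-05), with log2 differences of -1.96 for the ligands AREG and -1.87 for NRG1. Receptors that were higher included ERBB3 at 1.81, FGFR3 at 125, 125 and 103 against 7.1, 4.06 and 4.3 (4.296 ± 0.25 SE, adjusted p = 3e-05), FGFR4 at 2.61 and the ephrin receptor EPHA4 at 4.03. The EGF family list gave 2 higher and 5 lower of 12 (4 and 5 without p53 wild-type library C), and the other receptor tyrosine kinases 8 higher and 5 lower of 17. Of these 17 kinases, 2 passed the filter through the p53-deleted line only, which leaves 6 higher and 5 lower of 15 that passed through both lines. Of 25 MAPK output genes 5 were higher and 8 lower, with a median of -0.14, smaller in size than the scaling shift of 0.18. SPRY4, a feedback inhibitor of Ras signalling, was at 7353, 5620.5 and 5533 against 2189, 2165 and 1217 (1.77 ± 0.23 SE, adjusted p = 0.00092). The AP-1 components JUN, at 172, 196 and 243 against 904, 882 and 818 (-2.099 ± 0.14 SE, adjusted p = 4e-05), and FOSL1 (-1.24) were lower in the p53-deleted line.

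p53 target genes were not uniformly lower where p53 was deleted: of 30 tested, 9 were higher and 8 lower, with a median of 0.16, smaller than the scaling shift of 0.18. Without p53 wild-type library C, 11 were higher and 10 lower, with a median of 0.08. DDB2, a DNA damage recognition gene, was at 123, 136 and 120.2 normalized counts in libraries A to C of the p53-deleted line and 718, 593 and 911 in those of the p53 wild-type line (-2.52 ± 0.16 SE, adjusted p = 3.9e-05). CDKN1A, the gene of the cell cycle inhibitor p21, was at 2566, 2071 and 2059 against 4430.4, 4231 and 3581 (-0.87 ± 0.12 SE, adjusted p = 0.0011), with 813 ± 72.4 and 2278 ± 171 in the vector lines. These values do not overlap, but CDKN1A was higher in the p53-deleted H-Ras line than in every p53-deleted vector library. PLK2, a stress-induced kinase (-1.63), was also lower. In the other direction, BTG2, an antiproliferative gene, was at 317, 336 and 330.5 against 79.2, 93.5 and 119 (1.76 ± 0.16 SE, adjusted p = 0.00019), TP53I3, an oxidoreductase, at 756, 562 and 672 against 218, 217 and 209.6 (1.61 ± 0.12 SE, adjusted p = 8.3e-05), and the pro-apoptotic BAX at 0.54 and BBC3 at 0.83. Between the vector lines 4 targets were higher and 8 lower of 30. The calls for PLK2 and BBC3 were each lost when 1 of 2 p53-deleted libraries was left out, with adjusted p up to 0.062 and 0.053.

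Counts of cell cycle genes changed with single libraries. Mitosis genes deviated from the rest of the group by a median log2 of 1.396 in p53 wild-type library C and of -0.89 in p53-deleted library A. MKI67, a proliferation marker chosen after its values were seen, was at 747, 1443 and 1539 normalized counts in libraries A to C of the p53-deleted line and 2083, 1816 and 5878 in those of the p53 wild-type line. Library C of the p53 wild-type line was the highest, no p53-deleted library reached a p53 wild-type one, and the difference did not pass the test (-1.25 ± 0.46 SE, adjusted p = 0.066). It was called without library C (-0.72, adjusted p = 0.041), when p53 wild-type library B was left out, and when all 12 libraries were fitted together. Of 24 tested replication genes 0 were higher and 6 lower, with a median of -1.202, and without library C 3 higher and 15 lower of 24 (median -0.58). Mitosis genes gave 0 and 6 of 24 (median -1.12), and without it 0 higher and 11 lower of 24 (-0.65). The helicase subunit gene MCM6 was at 263, 284 and 248 against 531, 459 and 1477 (-1.42 ± 0.39 SE, adjusted p = 0.025; -0.896, adjusted p = 7.1e-05 without library C), and the mitotic kinase gene BUB1 at 140.0, 271 and 269 against 409, 390.1 and 1024 (-1.33 ± 0.41 SE, adjusted p = 0.036; -0.88, adjusted p = 0.015 without library C). Both lost the call when any 1 p53-deleted library was left out, with adjusted p up to 0.084 and 0.12. CCND2, the gene of cyclin D2, was called with and without that library (adjusted p = 1.7e-07 without it), at 8.75, 5.72 and 6.78 against 354, 371 and 287 (-5.39 ± 0.21 SE, adjusted p = 8.4e-06), and it also separated the vector lines (-3.82).

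Metabolic genes differed by pathway. Of 27 tested genes of glycolysis and of the hypoxia response, which HIF1 controls, 0 were higher and 20 lower in the p53-deleted line, with a median of -0.86. SLC2A3, a glucose transporter, was at 25.4, 23.8 and 31 normalized counts in libraries A to C of the p53-deleted line and 2227, 2271 and 895 in those of the p53 wild-type line (-5.91 ± 0.34 SE, adjusted p = 2.8e-05). NDRG1, a hypoxia-induced gene, was at 2397, 3379 and 3664 against 13246, 13397 and 7297 (-1.82 ± 0.26 SE, adjusted p = 0.0013), and ANGPTL4, a secreted lipase inhibitor, and CA12, a carbonic anhydrase, had differences of -1.85 and -1.78. All values of these 4 genes were lower in the p53-deleted libraries. Between the vector lines 0 were higher and 15 lower of 28. PKM, LDHA and ENO1, enzymes of the pathway with no unique solution in an H-Ras group, were not tested. Without library C the glycolysis count was 2 higher and 23 lower of 27, and with no rescaling of the tables differences shift up by at most 0.18.

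NRF2 is the transcription factor of the antioxidant response. Of 20 tested genes of its list 9 were higher and 2 lower in the p53-deleted line, with a median of 0.55. Without p53 wild-type library C the median was 0.35, with 10 higher and 2 lower of 20. NQO1, a quinone reductase, was at 9038, 7447 and 7183 normalized counts in libraries A to C of the p53-deleted line and 1958, 1872 and 1769.9 in those of the p53 wild-type line (2.07 ± 0.103 SE, adjusted p = 1.7e-05), and TXNRD1, thioredoxin reductase, at 10613, 9989.7 and 9804 against 3836, 3958 and 3804 (1.39 ± 0.07 SE, adjusted p = 1.9e-05). Between the vector lines the list gave 3 higher and 10 lower of 20. NQO1 separated the vector lines as well (1.91), whereas TXNRD1 did not pass the test there (0.099 ± 0.11 SE, adjusted p = 0.54), and its interaction was 1.29 ± 0.12 (SE, adjusted p = 3.2e-05). The aldehyde dehydrogenase gene ALDH3A1 was higher in the p53-deleted H-Ras line (2.12) and lower in the p53-deleted vector line (-3.69). ALDH1A3, which makes retinoic acid, was at 1959.6, 1473 and 1673 against 226, 214 and 272 (2.83 ± 0.14 SE, adjusted p = 1.5e-05). Aldehyde dehydrogenases gave 6 higher and 2 lower of 11, cholesterol and fatty acid synthesis 7 and 2 of 24 and amino acid and ER stress genes 1 and 8 of 25. The last count became 1 higher and 15 lower of 25 without library C, and the synthesis count 7 higher and 6 lower of 24.

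**Figure D3:**
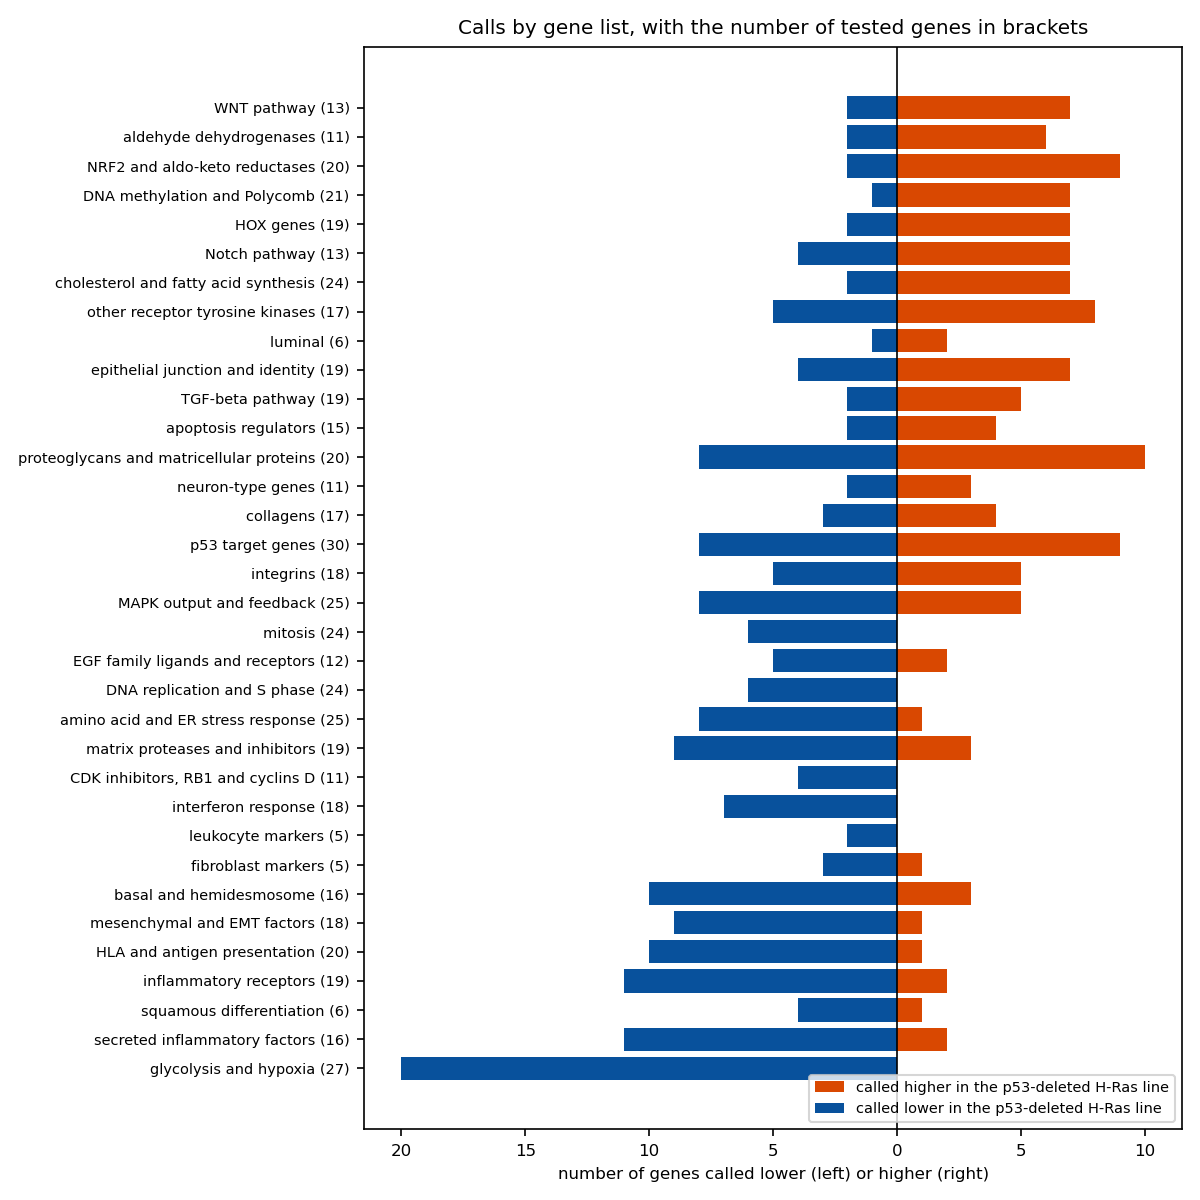
Number of genes called higher (orange, to the right of 0) or lower (blue, to the left of 0) in the p53-deleted H-Ras line for each gene list with at least 5 tested genes, with the number tested in brackets. The glycolysis and hypoxia list has 20 genes lower and 0 higher of 27, while 9 of 20 genes of the NRF2 list are higher and 2 lower.

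Polycomb proteins keep developmental genes silent. Of 21 tested Polycomb and DNA methylation genes 7 were higher and 1 lower (8 and 3 without p53 wild-type library C), among the former the chromobox genes CBX8 (1.38), CBX2 (1.26) and CBX7 (1.18). HOX genes gave 7 higher and 2 lower of 19, with 5 higher and 2 lower of 15 that reached 10 in both lines, and included HOXC13 (1.29, not called without p53-deleted library C, where adjusted p = 0.053) and HOXC8 (1.14). Squamous differentiation genes gave 1 higher and 4 lower of 6, of which 3 passed the filter through 1 line only, with S100A8 at 19.3, 55.3 and 39.7 against 1075, 1037 and 421 (-4.44 ± 0.46 SE, adjusted p = 0.00032). Luminal genes gave 2 higher and 1 lower of 6 (2 and 2 without p53 wild-type library C), apoptosis regulators 4 and 2 of 15, CDK inhibitors, RB1 and D cyclins 0 and 4 of 11 (without library C, 1 higher and 5 lower of 11) and neuron-type genes 3 and 2 of 11. Of 23 genes on the cancer-testis list, 21 were at 0 reads in both H-Ras lines. Only MAGED1 of that list passed the filter (0.16 ± 0.17 SE, adjusted p = 0.5). The only melanocyte or glial marker that passed it was MITF (0.69 ± 0.25 SE, adjusted p = 0.061). MITF was called higher without p53 wild-type library C (0.85, adjusted p = 0.014), with no rescaling, in a fit of all 12 libraries and without the trend.

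Some genes had hardly a read in a line. With at most 1 read over the 3 p53-deleted H-Ras libraries and 20 or more normalized counts on average in the other line there were 35 genes, of which 13 were zinc finger (ZNF) genes. Many ZNF proteins carry a KRAB domain and act as repressors. ZNF302 had 0 reads in the p53-deleted H-Ras line against 61.9, 79.2 and 88.1, at least 81.9-fold lower, and so had ZNF605 against 59.9, 54.9 and 65.6 and ZNF300 against 71, 44.7 and 59.1. All 3 were also at 0 reads in the p53-deleted vector line, with 42 ± 10.1, 32.8 ± 16.4 and 49.5 ± 13.3 in the p53 wild-type vector line. Of the 35 genes, 25 showed the same pattern in the vector lines (at most 3 reads against a mean of at least 10), 10 of them ZNF genes. In the opposite direction 15 genes had at most 1 read over the p53 wild-type libraries, 0 of them ZNF genes and 9 with the same pattern in the vector lines. Over all 400 tested ZNF genes 96 were higher and 67 lower, with a median of 0.17. ZNF genes share repeated domains, and reads of close relatives may be split. These sets were chosen after values were seen.

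Protocadherins are cell surface proteins of the nervous system, many of them encoded in the PCDHA, PCDHB and PCDHG clusters. Of 75 protocadherin genes on file, 23 passed the filter, 17 of them through 1 line only, and 19 were higher and 1 lower in the p53-deleted H-Ras line. The filter largely fixes the direction of those 17, and there were 5 higher and 0 lower of 6 that reached 10 in both lines. PCDHB6 was at 35, 40.1 and 39.7 with 0 reads in the p53 wild-type line, at least 37-fold higher. PCDHGB7 was at 125, 84.9 and 116 against 10.1, 10.2 and 2.15 (3.89 ± 0.49 SE, adjusted p = 0.00078) and PCDHB14 at 82.3, 56.3 and 63 against 9.13, 11.2 and 5.37 (2.87 ± 0.30 SE, adjusted p = 0.00033). PCDH12 was the gene that was lower (-1.55). Of 13 protocadherins tested between the vector lines 7 were higher and 3 lower. The cluster genes share exons and resemble each other, so their single values are uncertain, and the set was chosen after its values were seen.

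Calls were also counted by chromosome. Genes were placed on chromosomes by matching their IDs to GENCODE release 29, using only their chromosome and order. On chromosome 11 the median log2 difference over 725 tested genes was -0.50, with 53.7% of genes lower and 7.45% higher, against 19.3% and 18.4% over all genes. The vector lines gave the same median there, -0.50. In the order of genes with at least 50 normalized counts, the lowest running median over 41 neighbours lay around PANX1, at -0.95 between the H-Ras lines and -0.77 between the vector lines.

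Chromosomes 1 and 19 each showed a step. The best single split in gene order, sought after the medians by chromosome had been seen, fell on chromosome 1 between NOTCH2 and SRGAP2C: the 612 genes before it had a median of -0.08 and the 461 after it 0.43, with 55.7% of the latter higher. The same split gave 0.01 and 0.53 between the vector lines, which are other libraries. On chromosome 19 the split fell between ZNF254 and LINC00662, with medians of 0.12 over 311 genes and 0.63 over 342, and -0.14 and 0.44 between the vector lines. On chromosome 20 the first 44 genes, up to GPCPD1, had a median of 0.92 in the H-Ras lines and 0.91 in the vector lines, and 34 of them were higher and 0 lower. On chromosome 13 the median was 0.62 between the vector lines and 0.15 between the H-Ras lines, and the interaction called 74 of its 222 genes lower and 7 higher. The 18 other chromosomes had medians of -0.18 to 0.04 over genes with at least 50 normalized counts. DNA copy number was not measured here, and whether it moved with these values was not tested.

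**Figure D4:**
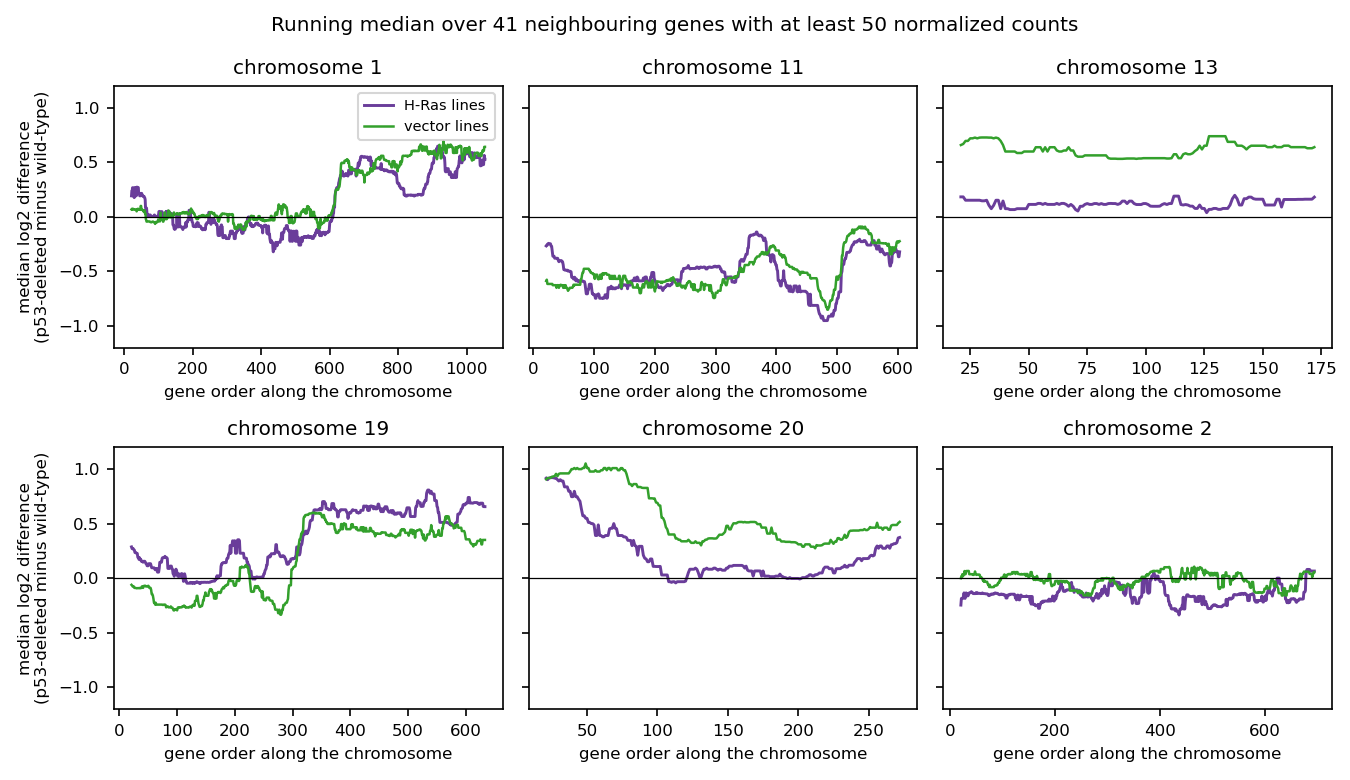
Running median of the log2 difference (p53-deleted minus p53 wild-type) over 41 neighbouring genes with at least 50 normalized counts, against gene order along 6 chromosomes, for the H-Ras lines (purple) and the vector lines (green). Chromosome 11 lies below 0 along its length, the later part of chromosomes 1 and 19 and the start of chromosome 20 lie above 0 in both pairs, and chromosome 2 is shown for contrast.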

How the data were processed

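RNA of MCF10A lines was made into TruSeq libraries by way of oligo-dT beads, per the labels' protocols, and the submitters' processing notes name FastQC, Trimmomatic, TopHat, SAMtools, HTSeq and GRCh37. Versions, the strand setting and the tool behind the normalization are not given in the sources used here, so antisense and overlapping genes are uncertain. The 2 deposited tables hold 1 signal value per gene and group, the authors' mean of normalized counts over 3 libraries, scaled separately in each table.

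The printed means carry 15 digits, and the whole reads and size factors of the 3 libraries behind each mean were solved from them. Of the genes above 0, this gave a single answer for 99.87% (p53-deleted vector), 99.99% (p53-deleted H-Ras), 100.0% (p53 wild-type vector) and 99.92% (p53 wild-type H-Ras). Libraries were named A to C by falling size factor. Estimated totals, scaled up by the share of signal solved, were 7846958 to 10084898 reads. The 4 group columns were divided by their median ratio to the geometric mean over 17008 genes above 0 in all 4. Genes with at least 10 in either H-Ras line were tested by limma (version 3.58.1; R version 4.3.3) with an intensity trend, on log2(value + 1), two-sided, with Benjamini-Hochberg adjustment at 0.05; a fold on this scale understates changes of low genes. The solving step and the limma fit were tested on simulated data. Gene sums and figures used Python 3.11.15, NumPy 2.4.6, pandas 2.3.3 and Matplotlib 3.10.9.

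Named genes were, by rule, the targeted genes, the 12 largest non-overlapping called differences in each direction with a mean of at least 100, the 5 largest in each direction with at least 1000, and up to 4 called members per list with at least 50; others are said to have been chosen after their values were seen. The members and lists were chosen with earlier results of these data known. For groups at 0 reads, bounds take 3 reads in the group as the floor. Some results of these lists are not reported here.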

Additional observations from a re-analysis of the deposited data

Results flagged for a closer look

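For 77 of 134 genes named in the text and checked, the difference between the H-Ras lines differed from the difference between the vector lines by the interaction contrast over 12 libraries (limma with Benjamini-Hochberg adjustment, adjusted p under 0.05, two-sided). Over all genes this contrast called 17.4%, and the genes were named for their difference between the H-Ras lines, so their share is not independent of the choice. The values that follow are the log2 difference between the H-Ras lines minus that between the vector lines, with 3 libraries in each of the 4 groups.

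In 7 genes both differences were called and had opposite signs (H-Ras lines, then vector lines): SERPINB2 (-4.59 and 2.01), SNAI2 (-1.94 and 1.06), CSF3 (-1.69 and 1.02), SFRP1 (2.23 and -0.67), EPCAM (2.41 and -0.63), FAM65B (3.92 and -1.54) and ALDH3A1 (2.12 and -3.69).

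The interaction was -3 or below for SERPINB2 -6.60, EHF -4.60, ADAMTS12 -4.46, FPR1 -4.43, SEMA7A -4.42, COL17A1 -4.22, CDH11 -4.14, CXCL5 -4.13, CSF2 -3.95, COL6A2 -3.62, INHBA -3.53, COL6A1 -3.45, C3AR1 -3.30, DSG3 -3.20, GPAT2 -3.17, SRPX -3.09 and SNAI2 -3.00. It lay between -3 and -1 for EPGN -2.86, CSF3 -2.72, PODXL2 -2.69, SLC2A3 -2.65, CXCL3 -2.65, CD74 -2.58, C1orf115 -2.42, TNC -2.38, NRG1 -1.86, JUN -1.85, BUB1 -1.78, FAM155B -1.58, CCND2 -1.58, PLK2 -1.43, COL6A3 -1.39, SAA1 -1.36, IL7R -1.22, ITGA6 -1.18, DDB2 -1.14, CXCL2 -1.09 and ITGA2 -1.07. Smaller negative values were those of FBLN1 -0.81, LAMB3 -0.74, NOTCH2 -0.70 and LAMA3 -0.61. Positive values up to 2 were those of CDKN1A 0.61, S100A13 0.61, EPHA2 0.78, BTG2 0.90, CBX2 0.93, CYR61 1.08, JAG2 1.17, SPRY4 1.23, ALDH1A3 1.28, TXNRD1 1.29, BBC3 1.31, MT1L 1.38, ITGB4 1.44, ZEB1 1.53, ERBB3 1.67, DKK1 1.74, CDH1 1.79 and S100A4 1.87. It was above 2 for ESRP1 2.04, NR2F1 2.13, SLC12A7 2.53, SFRP1 2.91, FGFR3 2.92, EPCAM 3.03, ITGA10 3.04, ONECUT3 3.06, NRARP 3.23, SEMA6B 3.24, SRGN 3.80, IL24 3.92, VIM 3.93, SULT1E1 5.19, CADM3 5.37, FAM65B 5.46 and ALDH3A1 5.82. VIM, ZEB1 and CDKN1A have a positive value because their difference was smaller in size between the H-Ras lines than between the vector lines. The negative values of COL6A1, COL6A2, COL6A3, GPAT2, PODXL2, C1orf115 and FAM155B belong to genes that were higher in the p53-deleted line in both pairs.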

How the results depend on the processing

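Under 16 other settings, which changed the pseudocount, the low-level filter, the scaling, the samples in the fit or the trend, or left out a library, the number of genes called between the H-Ras lines stayed within 1.5 times the main count of 4878. It ran from 3364 to 6425 when a library was left out, with the highest value without library C of the p53 wild-type line. Leaving out a library gave 2518 to 4699 calls between the vector lines (2518 without p53-deleted library A) and 1523 to 2343 for the interaction (1523 without p53-deleted H-Ras library C). Without genes of chromosomes 1, 11, 13, 19 and 20, an alternative chosen after seeing the data, 3084 genes were called, of fewer tested. Of 173 called genes named in the text or by the rule, 145 kept the call under every alternative, 28 lost it under at least 1, and 0 reversed. No paired analysis was possible because the solved libraries carry no replicate numbers. Both p53 states are single pairs of lines, and library values rest on solving deposited means. Depth limits genes near 10 counts, where a few reads decide the value.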

Other observations

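Further gene families, chosen after their values were seen, are given as values. Serum amyloid and complement genes, which are made in the acute phase of inflammation, gave 1 higher and 8 lower of 11 tested in the p53-deleted H-Ras line (median log2 difference -1.19). Of 7 that reached 10 in both lines, 0 were higher and 5 lower. Between the vector lines this set gave 0 higher and 9 lower of 10 tested, with a median of -2.81. SAA1, whose reads may be split with its copy SAA2, was at 407, 685 and 661 normalized counts in libraries A to C of the p53-deleted line and 11325, 11443 and 6987 in those of the p53 wild-type line (-4.09 ± 0.25 SE, adjusted p = 3.5e-05), and the complement gene C3 at 644, 1305 and 1400.4 against 7313, 7424 and 4973 (-2.61 ± 0.299 SE, adjusted p = 0.0005). The values of both genes do not overlap. Among S100 genes, 4 were higher and 4 lower of 11, with S100A9, the partner of S100A8 in calprotectin, at -2.71 and S100A13 at 1.42. Clade B serpins gave 0 higher and 6 lower of 7, of which 3 passed the filter through 1 line only, as did 4 of the serum amyloid and complement genes.

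Ephrins and their receptors gave 10 higher and 2 lower of 15, with the ligand EFNB3 at 229, 168 and 219 in the p53-deleted and 27.4, 38.6 and 19.3 in the p53 wild-type libraries (2.85 ± 0.26 SE, adjusted p = 0.00019) and the receptor EPHA2 at 1.04. Of these 15, 3 passed the filter through 1 line only. Among the 12 that reached 10 in both lines 7 were higher and 2 lower, with a median of 0.81. Semaphorins and plexins gave 10 higher and 2 lower of 21, with SEMA6B at 2.67 and SEMA7A at 119, 84.9 and 82.4 against 1531, 1609 and 1264 (-3.94 ± 0.17 SE, adjusted p = 8.4e-06). Their counts were 9 higher and 2 lower of 19 that reached 10 in both lines. ADAM and ADAMTS proteases gave 6 higher and 8 lower of 18, of which 7 passed through 1 line only, with ADAM12 at -2.603. Metallothioneins gave 2 higher and 1 lower of 4 (2 and 2 without p53 wild-type library C). MT1L, a near-identical copy of its relatives and so uncertain, was at 2.81. All adjusted p come from limma over all 12941 genes.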
